A study of Mus musculus with 10 samples.

Results

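Arginases, the resistin-like protein RELMα and the galactose-type lectins are the genes most often used to name a macrophage alternatively activated, and they were followed here in 3 sorted macrophage populations of mouse skeletal muscle together with receptor chains for the cytokines that induce that state. The 7 genes, chosen by symbol from the 17001 genes of the table, were *Arg1*, *Arg2*, *Retnla*, *Mgl2*, *Clec10a*, *Il4ra* and *Il10ra*, and all of them were measured in every library. They did not move together. Both arginases were higher in the macrophages of dystrophic muscle than in the resident macrophages of healthy muscle. *Retnla*, *Mgl2* and *Clec10a* had the opposite pattern, and the receptor genes changed by less than 2-fold.

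Macrophages of hindlimb muscle from mice 4 weeks old were separated by FACS on gal-3, Folr2 and CD52, and bulk RNA was sequenced. Skeletal muscle resident macrophages (SkMRMs, 3 libraries, positive for Folr2) came from WT C57BL/10 mice. Gal-3+ macrophages (4 libraries, high for gal-3 and low for Folr2) and monocyte-derived macrophages (MDMs, 3 libraries, low for gal-3, negative for Folr2 and high for CD52) came from B10.mdx mice, which lack dystrophin throughout the body and whose muscle undergoes repeated damage and repair. Every comparison with SkMRMs was thus also a comparison of mdx with WT, and the effects of population and genotype cannot be told apart. The labels call the libraries biological replicates but do not say whether each came from a separate mouse, and they name no treatment. Because whole populations were sequenced, a lower value from fewer expressing cells and one from less RNA per cell cannot be told apart.

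Arginase hydrolyzes arginine to ornithine, the precursor of polyamines and proline, and competes with inducible nitric oxide synthase for the same substrate. In mouse macrophages, IL-4 and IL-13 bind receptors that contain IL-4Rα and activate STAT6, and *Arg1*, *Retnla* and *Mgl2* are textbook targets of that signal, while IL-10 acts through IL-10Rα and STAT3. In injured muscle, macrophages of this kind are associated with the repair phase and with fibrosis.

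Library depth was 22395027 to 75907638 reads, the SkMRM library WT3 being the deepest. Values are counts divided by 1 size factor per library, called normalized counts below. All 6 SkMRM markers were called lower in both mdx populations (11.9% of all genes in gal-3+ macrophages and 18.0% in MDMs). The marker lists came from the study's text and hold *Folr2*, *Lgals3* and *Cd52*, the genes of the sorting antigens. Sorting on these antigens can itself set part of these directions. The markers separated the mdx populations less fully. All 5 gal-3+ markers were called higher than in SkMRMs in both (5.34% of all genes in gal-3+ macrophages and 8.81% in MDMs). Of these 5, 1 was called lower in MDMs than in gal-3+ cells (8.19% of all genes). The gal-3+ markers summed to 258309 to 321013 in gal-3+ cells and 200565 to 312626 in MDMs, which overlap. Of 7 MDM markers, 6 were called higher in gal-3+ cells than in SkMRMs (5.34% of all genes), and 6 were higher again in MDMs (3.32%). Pan-macrophage markers summed to 199553 to 213061 in SkMRMs, 307923 to 393872 in gal-3+ macrophages and 305378 to 365426 in MDMs. Genes of other cells were present too. The 9 markers of fibroblasts and fibro/adipogenic progenitors summed to 1363698, 794245 and 562493 in SkMRMs WT1 to WT3, against 58054 to 87098 in gal-3+ macrophages and 74737 to 83542 in MDMs. Tenocyte markers summed to 46002 to 85893 in SkMRMs, 2932 to 4935 in gal-3+ macrophages and 2682 to 3353 in MDMs. Muscle fiber and satellite cell markers reached 10795 to 18134, 7788 to 9255 and 2820 to 3101, and neutrophil markers 91 to 251, 419 to 561 and 1480 to 1831, in the same order of populations. None of the 9 fibroblast, 5 tenocyte, 9 muscle or 7 neutrophil markers measured was at 0 in every library of a population.

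**Figure D1:**
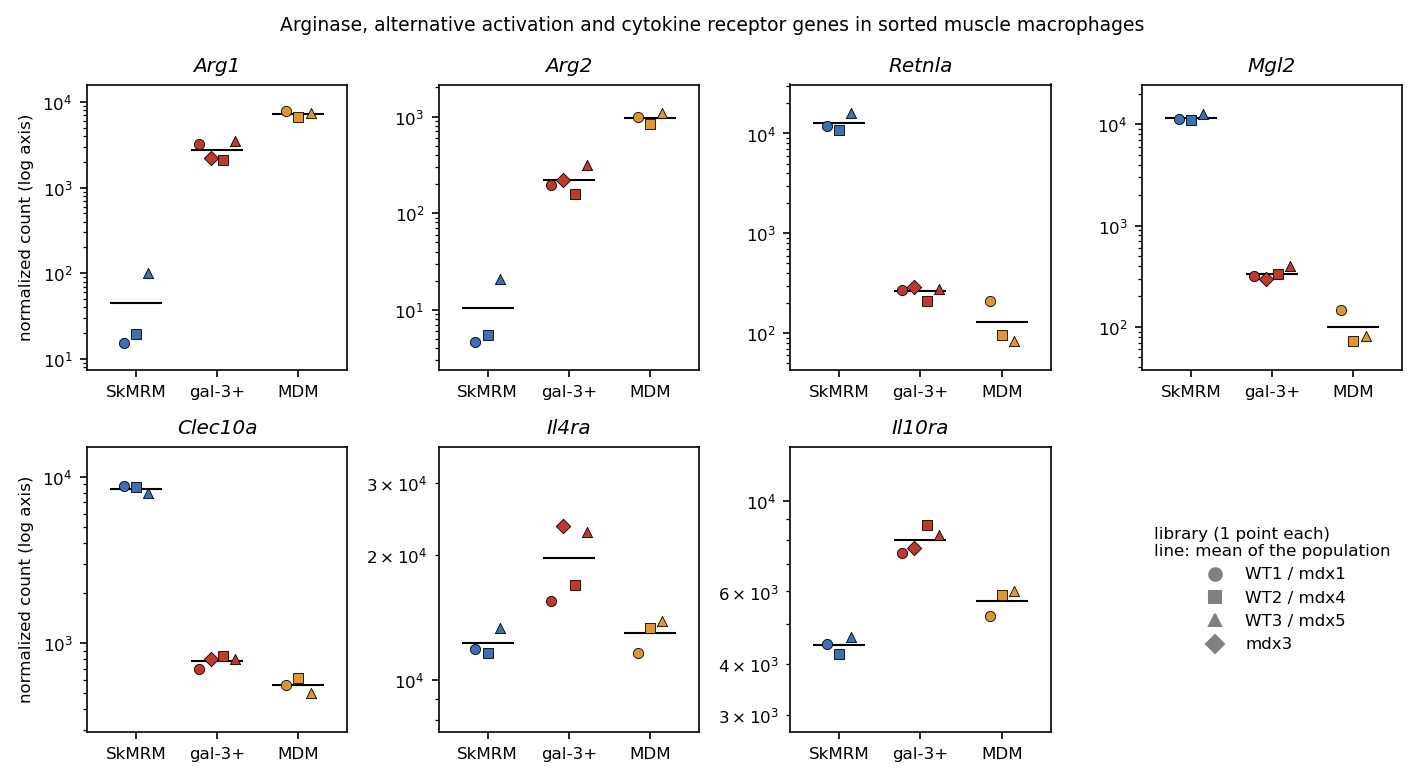
Normalized counts (log axis) of the 7 genes in 10 libraries, 1 point per library, with a line at the mean of each population. *Arg1* and *Arg2* were lowest in SkMRMs and highest in MDMs, *Retnla*, *Mgl2* and *Clec10a* were highest in SkMRMs, and *Il4ra* and *Il10ra* were highest in gal-3+ macrophages.

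*Arg1* encodes the cytosolic arginase (GRCm38 chromosome 10, 24915221 to 24927484, minus strand, with no overlapping gene). Its normalized counts were 15.2, 19.4 and 101.8 in the SkMRM libraries WT1, WT2 and WT3. The gal-3+ libraries mdx1, mdx3, mdx4 and mdx5 had 3193, 2245, 2113 and 3506, and the MDM libraries mdx1, mdx4 and mdx5 had 7793, 6611 and 7429. No library of one population reached the range of another. The SkMRM values rested on 13, 25 and 282 reads, and WT3 lay well above WT1 and WT2. The means were 45.5 ± 48.8 (SD, n = 3), 2764 ± 690 (SD, n = 4) and 7278 ± 605 (SD, n = 3).

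*Arg1* rose from SkMRMs to gal-3+ macrophages by 6.38 on the log2 scale of normalized count + 1 (SE 0.42, limma adjusted p = 1.4e-09) and to MDMs by 7.81 (SE 0.44, limma adjusted p = 1.5e-10). Among all 17001 genes these were the 14th and 16th highest log2 fold changes of their comparisons. The ratio of means was 60.8 for gal-3+ macrophages and 160.1 for MDMs over SkMRMs. Between the mdx populations MDMs exceeded gal-3+ macrophages by 1.43 (SE 0.42), which had a limma adjusted p of 0.011 and missed the threshold of 0.01. That difference passed with edgeR on recovered reads (1.35, adjusted p = 0.0012), with only the mdx populations in the limma fit (adjusted p = 5.5e-05), and when SkMRM WT1, WT2 or WT3 was left out (limma adjusted p = 0.0047, 0.0096 and 8.6e-07). It did not pass with DESeq2 on recovered reads (1.40, adjusted p = 0.052) or with TMM scaling (limma adjusted p = 0.014). Nor did it pass when any single mdx library was left out (limma adjusted p = 0.015 to 0.045).

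*Arg2* encodes the mitochondrial arginase (chromosome 12, 79130777 to 79156301, plus strand). It overlaps *Vti1b* and an antisense transcript on the other strand, and whether reads were counted by strand is not given in the sources used here. *Arg2* stood at 4.67, 5.44 and 20.9 normalized counts in SkMRMs (4, 7 and 58 reads), 194.4, 222.7, 159.0 and 313.0 in gal-3+ cells, and 988.2, 830.5 and 1088.4 in MDMs, in the library order given for *Arg1*. The populations did not overlap, and WT3 was again the highest SkMRM library. By mean, *Arg2* stood at or above 47.8% of all genes in gal-3+ cells and 71.2% in MDMs. The increase over SkMRMs was 4.54 on the log2 scale in gal-3+ macrophages (SE 0.39, limma adjusted p = 5.8e-08) and 6.70 in MDMs (SE 0.42, limma adjusted p = 5.8e-10). MDMs were also higher than gal-3+ macrophages, by 2.15 (SE 0.39, limma adjusted p = 3.7e-04). *Vti1b*, a SNARE protein gene, was at 1572 ± 80.4 (SD, n = 3) in SkMRMs, 2153 ± 108 (SD, n = 4) in gal-3+ macrophages and 2608 ± 228 (SD, n = 3) in MDMs, a fold under 2 in each comparison.

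The higher arginase values of WT3 went with higher *Ccr2* and *Plac8* in that library, though not with every MDM marker. *Ccr2*, the chemokine receptor of inflammatory monocytes, was at 872.5, 629.8 and 1996 in SkMRMs WT1 to WT3, against 20292 to 22424 in MDMs. *Plac8* was at 332.4, 132.8 and 784.0. The 7 MDM markers summed to 2634, 1995 and 4163, a sum that includes *Ccr2* and *Plac8*. *Chil3*, by contrast, was at 57.2, 19.4 and 35.0. Whether cells of the MDM type contributed the arginase reads of WT3 was not tested. With WT3 left out, *Arg1* was higher than in SkMRMs by 7.22 in gal-3+ cells and 8.64 in MDMs, and *Arg2* by 5.16 and 7.32. With all libraries, the count tests gave lower values than limma, *Arg1* at 5.69 and 7.05 with edgeR and 5.90 and 7.30 with DESeq2, and *Arg2* at 4.20 and 6.28 with edgeR and 4.22 and 6.35 with DESeq2.

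The balance between the arginases also differed. *Arg1* outnumbered *Arg2* by 3.25, 3.57 and 4.86 to 1 in SkMRMs, 16.4, 10.1, 13.3 and 11.2 to 1 in gal-3+ macrophages, and 7.89, 7.96 and 6.83 to 1 in MDMs. Gal-3+ macrophages thus held the highest share of *Arg1*, with no overlap between populations. Mean log2 ratios, with 1 added to each normalized count, were 1.80 ± 0.38 (SD, n = 3), 3.64 ± 0.31 (SD, n = 4) and 2.91 ± 0.12 (SD, n = 3). The SkMRM ratios rested on 4, 7 and 58 reads of *Arg2*. With 5 added instead, gal-3+ macrophages differed from SkMRMs by 2.17. The differences of 1.84 between gal-3+ macrophages and SkMRMs and of -0.73 between MDMs and gal-3+ macrophages each had p = 0.0571 in a two-sided exact permutation test (adjusted p = 0.0857 over 6 ratio tests), and the difference of 1.11 between MDMs and SkMRMs had p = 0.1. These are the smallest p-values that groups of 3 and 4, or 3 and 3, allow, so no ratio test could pass 0.05. The transcripts share 62.1% of 1004 aligned coding bases and no run of 100 bases, so reads of that length did not match both exactly.

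**Figure D2:**
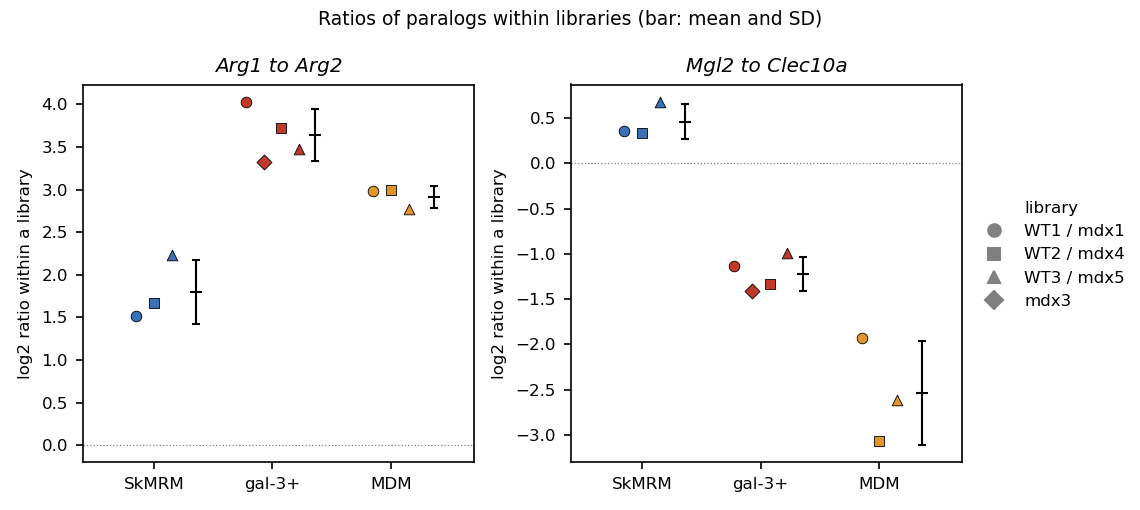
Log2 ratios within each library of *Arg1* to *Arg2* (left) and of *Mgl2* to *Clec10a* (right), with 1 added to each normalized count. Each library is 1 point, with the mean and SD of each population beside the points. *Arg1* to *Arg2* was highest in gal-3+ macrophages, and *Mgl2* to *Clec10a* fell from above 0 in SkMRMs to a mean of -2.54 in MDMs.

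*Retnla* encodes RELMα, a small secreted protein of the resistin family that in mice is a standard mark of IL-4 exposure (chromosome 16, 48842551 to 48844461, plus strand, with no overlapping gene). Its normalized counts were 11769, 10833 and 15845 in SkMRMs, 271.3, 290.7, 208.3 and 277.9 in gal-3+ cells, and 211.9, 95.7 and 83.4 in MDMs. Every SkMRM library lay far above every mdx library. *Retnla* thus fell by 5.60 on the log2 scale in gal-3+ macrophages (SE 0.24, limma adjusted p = 6.0e-12) and by 6.72 in MDMs (SE 0.26, limma adjusted p = 9.5e-13). In SkMRMs it stood at or above 98.5% of all genes by mean normalized count, and in MDMs at or above 43.4%.

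Between the mdx populations *Retnla* was lower in MDMs by a log2 fold change of -1.12 (SE 0.24, limma adjusted p = 0.0015). The libraries overlapped there, since MDM mdx1 at 211.9 exceeded gal-3+ mdx4 at 208.3. The call was lost with DESeq2 on recovered reads (-1.02, adjusted p = 0.015), with the mdx populations fitted alone in limma (adjusted p = 0.015), and without MDM mdx4 (-0.96, limma adjusted p = 0.012) or MDM mdx5 (-0.86, limma adjusted p = 0.013). Within SkMRMs, *Retnla* and *Mgl2* were highest in WT3, and *Clec10a* was lowest there (7936, against 8746 and 8660 in WT1 and WT2). WT3 had the lowest sums of fibroblast and tenocyte markers and the highest sum of muscle fiber and satellite cell markers (18134). The part of such cells in the SkMRM values of *Retnla*, *Mgl2* and *Clec10a* was not tested. No other resistin-like gene was among those analysed here.

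The promoter windows of *Retnla* and *Mgl2* are shown because both genes fell in the mdx populations and are textbook STAT6 targets. They run from 250 bases before to 50 after the start in RefSeq (GRCm38.p6), 5′ to 3′. *Retnla* is at chr16:48842359-48842658 and *Mgl2* at chr11:70130107-70130406, both on the plus strand. Capitals mark matches, on either strand, to TTC and GAA with 4 bases between them, the spacing that STAT6 prefers, TTCNNNGAA, the spacing of other STAT proteins, or TTGCNNAA, a C/EBP motif.
Retnla: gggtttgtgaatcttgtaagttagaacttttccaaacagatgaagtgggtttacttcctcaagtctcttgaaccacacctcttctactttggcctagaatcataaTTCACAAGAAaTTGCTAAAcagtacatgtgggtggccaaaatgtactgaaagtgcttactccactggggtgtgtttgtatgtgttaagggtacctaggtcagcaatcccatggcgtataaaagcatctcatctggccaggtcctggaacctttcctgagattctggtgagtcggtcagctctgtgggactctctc
Mgl2: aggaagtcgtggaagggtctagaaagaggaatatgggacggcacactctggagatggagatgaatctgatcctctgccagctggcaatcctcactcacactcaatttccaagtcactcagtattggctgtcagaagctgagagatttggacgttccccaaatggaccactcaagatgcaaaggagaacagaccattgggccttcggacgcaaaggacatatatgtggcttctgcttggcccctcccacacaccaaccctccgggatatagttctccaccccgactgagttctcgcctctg

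The *Retnla* window held TTCACAAGAA, a match to the STAT6 spacing, from position -145 relative to the start, and TTGCTAAA, a match to TTGCNNAA, from position -134. The matches were 1 base apart. The *Mgl2* window, and that of *Il4ra*, held none of the 3 motifs. Of 32851 mouse promoter windows of this length, 6.95% held the STAT6 spacing, 8.30% held TTCNNNGAA and 10.8% held TTGCNNAA. Windows for 3 of the 7 genes were matched in the RefSeq table. A match is a description of the sequence and does not show that a factor was bound.

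*Mgl2* and *Clec10a* are neighboring paralogs on chromosome 11, both on the plus strand (70130329 to 70137550 and 70156197 to 70170834), and encode MGL2 and MGL1, surface lectins that bind terminal galactose and N-acetylgalactosamine. *Mgl2* was at 11241, 10943 and 12743 normalized counts in SkMRMs, 317.2, 298.7, 330.4 and 401.7 in gal-3+ cells, and 147.0, 72.7 and 81.0 in MDMs. The populations did not overlap in any pair. *Mgl2* fell by 5.11 on the log2 scale from SkMRMs to gal-3+ macrophages (SE 0.19, limma adjusted p = 9.7e-13) and by 6.91 to MDMs (SE 0.20, limma adjusted p = 2.9e-14). The further drop from gal-3+ macrophages to MDMs was a log2 fold change of -1.80 (SE 0.19, limma adjusted p = 1.4e-06).

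*Clec10a* was less variable and fell less. Its normalized counts were 8746, 8660 and 7936 in SkMRMs, 699.7, 797.5, 832.2 and 801.4 in gal-3+ cells, and 561.3, 618.8 and 502.5 in MDMs, again with no overlap. It fell by 3.43 in gal-3+ macrophages (SE 0.10, limma adjusted p = 4.2e-14) and by 3.91 in MDMs (SE 0.10, limma adjusted p = 8.9e-15) against SkMRMs. MDMs were below gal-3+ macrophages by -0.48 (SE 0.10, limma adjusted p = 8.3e-04), a fold under 2.

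The unequal fall changed the ratio of the lectins within each library. *Mgl2* to *Clec10a* was 1.29, 1.26 and 1.61 in SkMRMs, 0.45, 0.37, 0.40 and 0.50 in gal-3+ cells, and 0.26, 0.12 and 0.16 in MDMs. *Mgl2* was thus the more abundant of the pair by normalized counts in every SkMRM library and the less abundant in every mdx library. Mean log2 ratios, again with 1 added to each normalized count, were 0.46 ± 0.19 (SD, n = 3), -1.22 ± 0.19 (SD, n = 4) and -2.54 ± 0.58 (SD, n = 3). The differences were -1.68 for gal-3+ macrophages against SkMRMs and -1.32 for MDMs against gal-3+ macrophages, each with a two-sided exact permutation p of 0.0571 (adjusted p = 0.0857 over 6 ratio tests). For MDMs against SkMRMs the exact p was 0.1. The coding sequences were identical at 88.7% of 917 aligned bases, and 91 of the 2305 windows of 100 bases in *Mgl2* also occurred in *Clec10a*. Single reads of that length from those stretches match both genes, and how such reads were counted is not given in the sources used here.

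Some dendritic cells also carry these lectins. The 9 dendritic cell markers went both ways, and *Cd209a* and *Zbtb46* were among those lower in both mdx populations. *Cd209a* was at 247.7 to 360.2 in SkMRMs, 66.9 to 122.7 in gal-3+ macrophages and 64.6 to 117.0 in MDMs. *Zbtb46* was at 438.2 to 600.7, 120.5 to 182.3 and 61.2 to 102.2. The 9 dendritic cell markers together summed to 9163 to 11076 in SkMRMs, 38035 to 47342 in gal-3+ macrophages and 9125 to 14052 in MDMs. Against SkMRMs 3 of them were called lower (11.9% of all genes) and 2 higher (5.34%) in gal-3+ macrophages. In MDMs 2 were called lower (18.0%) and 1 higher (8.81%). The part of such cells in the lectin values was not tested.

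*Il4ra* encodes the receptor chain shared by the IL-4 and IL-13 receptors (chromosome 7, 125552120 to 125579474, plus strand, with an antisense gene over part of it). Its normalized counts were 11885, 11602 and 13331 in SkMRMs, 15491, 23561, 16980 and 22827 in gal-3+ cells, and 11623, 13355 and 13900 in MDMs. All gal-3+ libraries were above all others, while SkMRMs and MDMs overlapped. The log2 fold change was 0.66 in gal-3+ macrophages over SkMRMs (SE 0.12, limma adjusted p = 3.0e-04) and -0.59 in MDMs over gal-3+ macrophages (SE 0.12, limma adjusted p = 0.0012). MDMs and SkMRMs differed by 0.08 (SE 0.13, limma adjusted p = 0.64). By mean normalized count, not corrected for its exon length of 6002 bases, the receptor gene stood at or above 97.9% to 99.0% of genes in the populations.

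*Il10ra* encodes the ligand-binding chain of the IL-10 receptor (chromosome 9, 45253837 to 45269149, minus strand, with a processed pseudogene opposite and a microRNA gene within). It was at 4456, 4227 and 4633 in SkMRMs, 7466, 7659, 8701 and 8219 in gal-3+ cells, and 5215, 5875 and 6020 in MDMs. No populations overlapped, with gal-3+ macrophages highest, MDMs next and SkMRMs lowest. The log2 fold changes over SkMRMs were 0.85 in gal-3+ macrophages (SE 0.08, limma adjusted p = 9.5e-08) and 0.36 in MDMs (SE 0.08, limma adjusted p = 0.0012). MDMs differed from gal-3+ macrophages by -0.49 (SE 0.08, limma adjusted p = 8.6e-05).

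**Figure D3:**
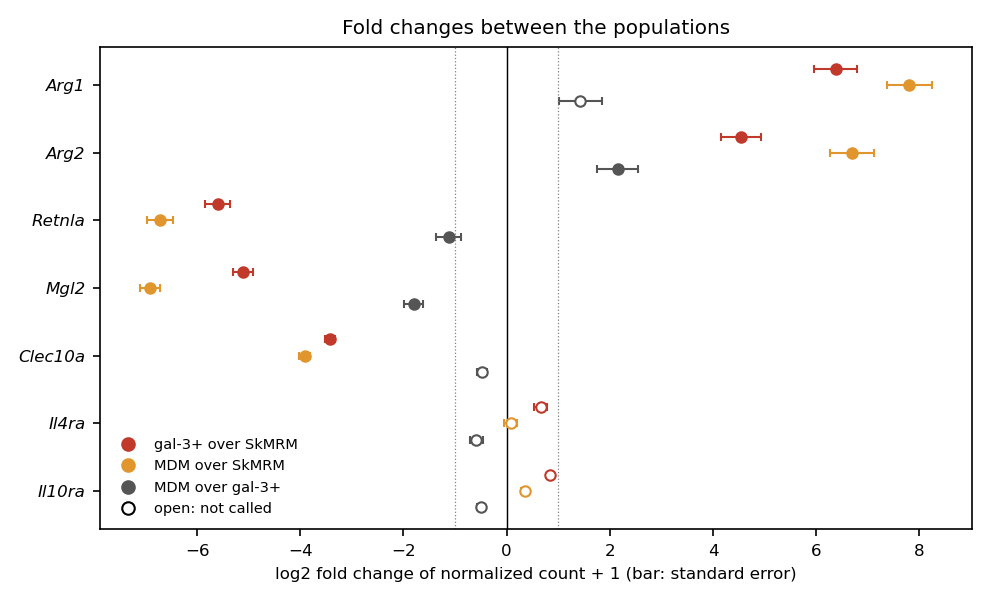
Log2 fold changes of normalized count + 1 for the 7 genes in the 3 comparisons, with standard errors from limma. Filled points passed a fold of 2 and an adjusted p under 0.01, dotted lines mark a fold of 2, and the arginases lie right of 0 and *Retnla*, *Mgl2* and *Clec10a* left of it in every comparison.

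A gene was called at a fold of at least 2 and a Benjamini-Hochberg adjusted p under 0.01. In gal-3+ macrophages against SkMRMs, 2 of the 7 genes were called higher, where 5.34% of all genes were, and 3 lower, where 11.9% were. All 7 had no overlap between the populations, against 52.2% of all genes. In MDMs against SkMRMs, 2 were called higher (8.81% of all genes) and 3 lower (18.0%), and 6 did not overlap (64.4%). In MDMs against gal-3+ macrophages, 1 was called higher (3.32%) and 2 lower (8.19%), and 6 did not overlap (42.4%). The median log2 fold change of the 7 genes was 0.66, 0.08 and -0.49 in these comparisons, against -0.11, -0.17 and 0.03 for all genes. The first and second comparisons share the SkMRM libraries.

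Levels were compared between genes as mean normalized count per kilobase of annotated exon. In SkMRMs *Retnla* was highest at 21395 ± 4449 per kilobase (SD, n = 3), followed by *Mgl2* at 5560 ± 461, *Clec10a* at 2914 ± 153, *Il4ra* at 2045 ± 155 and *Il10ra* at 1269 ± 58.3. *Arg1* at 20.4 ± 21.9 and *Arg2* at 7.24 ± 6.43 came last. Their SDs overlapped through WT3, but *Arg1* was the higher per kilobase in each library, at 6.81 against 3.27, 8.71 against 3.81 and 45.7 against 14.7. In MDMs *Arg1* led at 3267 ± 272 per kilobase (SD, n = 3), ahead of *Il4ra* at 2159 ± 198, *Il10ra* at 1630 ± 123 and *Arg2* at 679 ± 91.0. *Retnla* at 218 ± 118 and *Clec10a* at 193 ± 20.0 were within their spread of each other there, and *Mgl2* was lowest at 47.9 ± 19.5. In gal-3+ macrophages *Il4ra* at 3285 ± 679 and *Il10ra* at 2290 ± 160 per kilobase (SD, n = 4) were above *Arg1* at 1241 ± 310. *Retnla* at 437 ± 61.3, *Clec10a* at 270.0 ± 19.8, *Mgl2* at 161 ± 21.5 and *Arg2* at 156 ± 46.1 followed, the last pair within their spread.

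Some genes around arginase rose and others fell. Of 27 genes of arginine, nitric oxide and polyamine metabolism other than the arginases, 3 were called higher and 1 lower in gal-3+ macrophages against SkMRMs, where 5.34% and 11.9% of all genes were. In MDMs 7 were called higher and 4 lower, where 8.81% and 18.0% of all genes were. The median log2 fold changes of the list were 0.19 and 0.24, against -0.11 and -0.17 for all genes. *Ass1*, which makes argininosuccinate for the resynthesis of arginine from citrulline, was at 57.8 ± 17.2 in SkMRMs (SD, n = 3), 243 ± 35.6 in gal-3+ cells (SD, n = 4) and 1472 ± 182 in MDMs (SD, n = 3). Its log2 fold changes over SkMRMs were 2.09 (limma adjusted p = 4.8e-07) and 4.68 (limma adjusted p = 2.2e-11). *Odc1*, which turns ornithine into the first polyamine, rose by 1.40 (limma adjusted p = 4.8e-10) and 1.88 (limma adjusted p = 1.6e-11), and *Smox*, spermine oxidase, by 1.42 (limma adjusted p = 5.7e-08) and 2.45 (limma adjusted p = 6.9e-11). The other genes called higher in MDMs were *Slc7a1* (1.19) and *Slc7a2* (1.13), which carry arginine into the cell, *Asl* (1.06), the step after *Ass1*, and *Sms* (1.03), spermine synthase.

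The genes called lower were *Gatm*, *Ddah1*, *Ddah2* and *Pycr1* in MDMs, and *Pycr1* in gal-3+ macrophages. *Gatm*, the first enzyme of creatine synthesis from arginine, was called lower in MDMs than in SkMRMs (log2 fold change -1.54, limma adjusted p = 4.4e-09) but had a fold under 2 in gal-3+ macrophages (0.61, limma adjusted p = 1.6e-04). *Ddah1*, whose enzyme degrades methylated arginines that inhibit nitric oxide synthases, was also called lower in MDMs (-2.67, limma adjusted p = 2.7e-05). *Pycr1*, a step of the synthesis of proline, which can start from ornithine, was at 159 ± 90.5 in SkMRMs, 26.9 ± 14.3 in gal-3+ cells and 15.6 ± 11.9 in MDMs, and was called lower in both mdx populations. Without SkMRM WT3 no gene of the list was called lower in gal-3+ macrophages. *Nos2*, the inducible nitric oxide synthase, was low everywhere, at 85.3 ± 48.8 in SkMRMs, 90.1 ± 33.4 in gal-3+ cells and 53.4 ± 11.2 in MDMs, with log2 fold changes of 0.19 (SE 0.46, limma adjusted p = 0.75) and -0.48 (SE 0.49, limma adjusted p = 0.42) over SkMRMs.

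Along the IL-4 and IL-13 pathway, 12 of 15 listed genes including *Il4ra* were in the table. None was called in gal-3+ macrophages against SkMRMs by limma (background 5.34% higher and 11.9% lower). In that comparison 10 had an unadjusted p under 0.05, edgeR and DESeq2 called 1 and 0, and limma without SkMRM WT3 called 2, all higher. In MDMs 4 were called higher and none lower (background 8.81% and 18.0%), the same counts as with edgeR, DESeq2 or WT3 left out, and 8 had an unadjusted p under 0.05. The share of all genes at that unadjusted cutoff was not computed. By limma at an adjusted p under 0.05, 3947 of 17001 genes were higher and 4397 lower in gal-3+ macrophages. In MDMs 4518 were higher and 5216 lower. The counts at an unadjusted p are therefore not read as a shift of the pathway. *Jak2*, a cytokine receptor kinase, was at 1796 ± 233 in SkMRMs (SD, n = 3), 3488 ± 438 in gal-3+ cells (SD, n = 4) and 6565 ± 455 in MDMs (SD, n = 3), a log2 fold change of 1.87 in MDMs over SkMRMs (limma adjusted p = 3.0e-10). *Il2rg*, the common gamma chain that pairs with IL-4Rα, rose by 1.42 (limma adjusted p = 2.5e-05), *Cish*, a feedback inhibitor, by 1.29 (limma adjusted p = 3.0e-06) and *Ptpn6*, the phosphatase SHP-1, by 1.20 (limma adjusted p = 3.3e-07) in MDMs. *Stat6* itself had log2 fold changes of 0.24 (limma adjusted p = 0.051) and 0.53 (limma adjusted p = 3.0e-04), and *Il13ra1*, the partner of IL-4Rα for IL-13, of -0.07 (limma adjusted p = 0.56) and 0.38 (limma adjusted p = 0.0061). *Il4* and *Il13* were not analysed here.

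For IL-10 the ligand had larger fold changes than the receptor chains. *Il10* was at 990.3, 909.3 and 1184 in SkMRMs, 10147, 9046, 8725 and 11062 in gal-3+ cells, and 6247, 7724 and 9000 in MDMs. SkMRMs lay below all mdx libraries, with log2 fold changes of 3.25 in gal-3+ macrophages (SE 0.12, limma adjusted p = 8.2e-13) and 2.89 in MDMs (SE 0.13, limma adjusted p = 5.3e-12). Of the 11 genes of this list, *Il10ra* included, 2 were called, both higher in both mdx populations. They were *Il10* and *Nfil3*, a transcription factor induced by IL-10. Against SkMRMs, 5.34% of all genes were called higher and 11.9% lower in gal-3+ macrophages, and 8.81% and 18.0% in MDMs. *Il10rb*, the accessory receptor chain, had log2 fold changes of 0.78 (limma adjusted p = 3.9e-07) and 0.70 (limma adjusted p = 1.9e-06), under 2-fold, and *Stat3* of -0.14 (limma adjusted p = 0.26) and 0.06 (limma adjusted p = 0.64).

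Other genes that IL-4 or IL-13 induces in mouse macrophages went both ways. Of 29 in the table, 10 were called higher and 6 lower in gal-3+ macrophages against SkMRMs, beside 5.34% and 11.9% of all genes. Against SkMRMs, MDMs had 12 higher and 6 lower (8.81% and 18.0% of all genes), and against gal-3+ macrophages 6 higher and 3 lower (3.32% and 8.19%). The median log2 fold changes were 0.61, 0.58 and 0.33, against -0.11, -0.17 and 0.03 for all genes. *Chil3*, the chitinase-like protein Ym1, was at 37.2 ± 19.0 in SkMRMs (SD, n = 3), 2407 ± 595 in gal-3+ cells (SD, n = 4) and 20731 ± 7147 in MDMs (SD, n = 3). *Fn1*, fibronectin, was at 12443 ± 2279, 97217 ± 11143 and 324466 ± 45443, the same order as *Arg1*. *Tgm2*, a transglutaminase that crosslinks matrix proteins, rose by 4.34 (limma adjusted p = 3.0e-11) and 4.64 (limma adjusted p = 2.0e-11) on the log2 scale. *Clec7a*, the beta-glucan receptor dectin-1, rose by 3.43 (limma adjusted p = 1.5e-13) and 4.10 (limma adjusted p = 1.8e-14). *Atp6v0d2*, a subunit of the vacuolar proton pump, was highest in gal-3+ macrophages, at 8954 ± 992 against 375 ± 9.32 in SkMRMs and 1739 ± 420 in MDMs.

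The members of that list that fell included *Mrc1*, the mannose receptor CD206, at 126461 ± 6209 in SkMRMs (SD, n = 3), 39329 ± 3483 in gal-3+ cells (SD, n = 4) and 19587 ± 2919 in MDMs (SD, n = 3). *Irf4*, a transcription factor of the IL-4 response, fell by 2.34 (limma adjusted p = 2.3e-10) and 2.01 (limma adjusted p = 2.8e-09) in gal-3+ macrophages and MDMs, and *Ccl24*, an eosinophil chemokine, by 2.97 (limma adjusted p = 7.0e-11) and 1.52 (limma adjusted p = 5.6e-07). Of 9 galactose- or mannose-binding C-type lectins in the table, *Mgl2* and *Clec10a* included, 6 were called lower in gal-3+ cells (11.9% of all genes) and 8 in MDMs (18.0%) against SkMRMs. *Colec12*, a scavenger receptor with a lectin domain, had log2 fold changes of -2.14 (limma adjusted p = 4.6e-12) and -3.26 (limma adjusted p = 3.5e-14). The remaining lectin in MDMs, *Clec4n* or dectin-2, was called higher there (1.60, limma adjusted p = 2.2e-08). The sums of fibroblast and tenocyte markers were also highest in SkMRMs. All 5 tenocyte markers were called lower in both mdx populations. Of the 9 fibroblast markers, 5 were called lower in gal-3+ macrophages, and in MDMs 3 were called lower and 1 higher (8.81% of all genes). The part of such cells in the values of these lectins was not tested.

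Of 22 genes of classical activation, 4 were called higher and 2 lower in gal-3+ macrophages against SkMRMs, beside 5.34% and 11.9% of all genes. In MDMs 8 were called higher and 5 lower (7 and 3 without SkMRM WT3), beside 8.81% and 18.0%. The medians were 0.09 and 0.70. *Il1b*, the inflammatory cytokine, was at 183 ± 136 in SkMRMs (SD, n = 3), 26173 ± 3389 in gal-3+ cells (SD, n = 4) and 62360 ± 12109 in MDMs (SD, n = 3), and *Ptgs2*, cyclooxygenase-2, at 832 ± 77.9, 16569 ± 1865 and 38270 ± 8025. *Cd86*, a costimulatory ligand, was called lower in both, by -2.04 (limma adjusted p = 7.0e-11) and -1.18 (limma adjusted p = 1.3e-07).

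**Figure D4:**
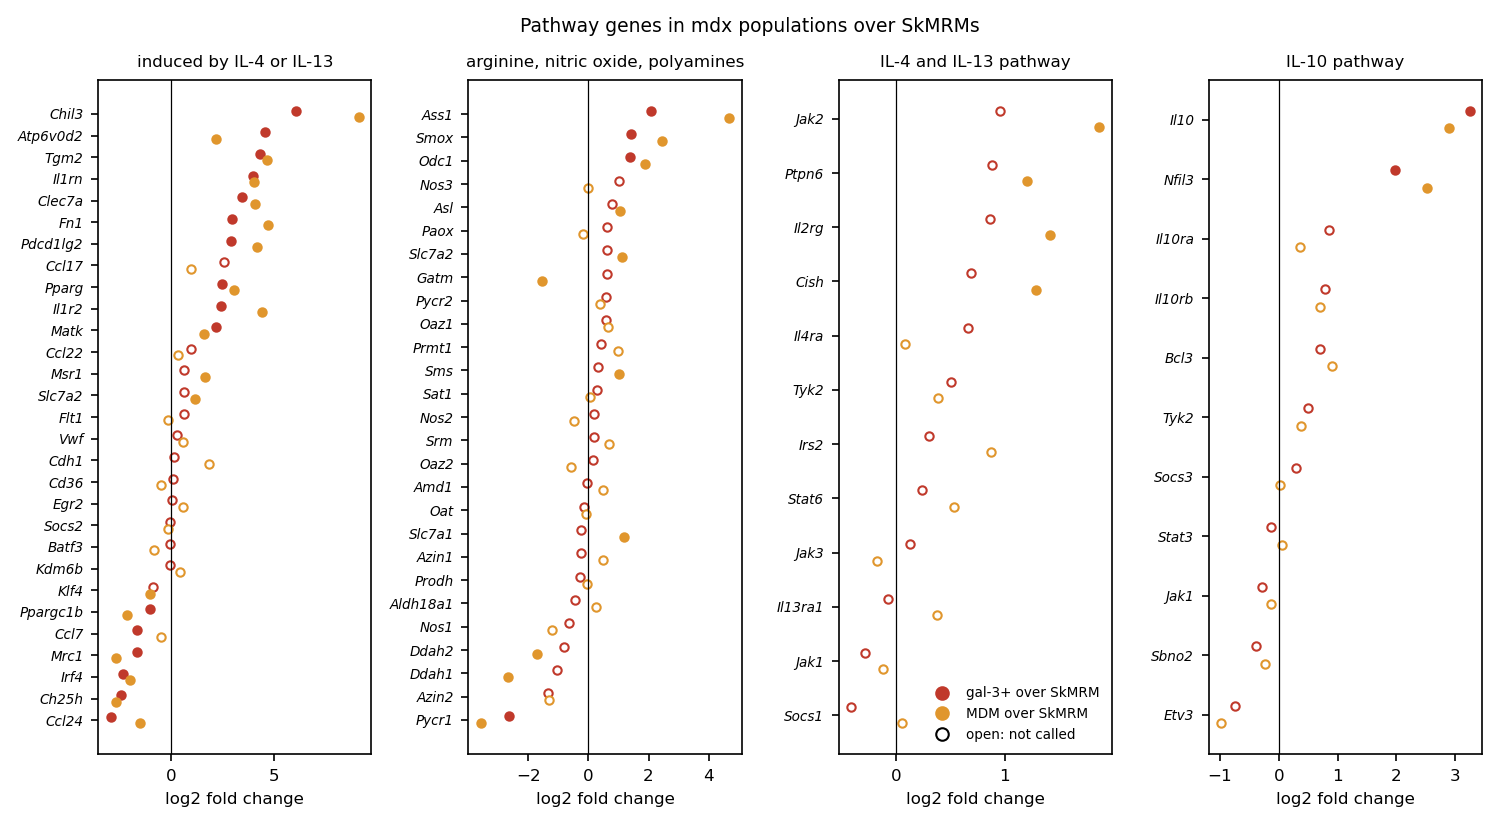
Log2 fold changes over SkMRMs in gal-3+ macrophages (red) and MDMs (orange) for 4 gene lists, with filled points for genes that passed the thresholds. Genes induced by IL-4 or IL-13 lie on both sides of 0, in the order of their gal-3+ values from *Chil3* at 6.07 and 9.16 to *Ccl24* at -2.97 and -1.52. Both sets of points share the SkMRM libraries.

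Genes whose log2 values closely followed each of the 7 over the 10 libraries were found among 10864 genes with a mean of at least 100. They were *Sdcbp* (Pearson r = 0.996) and *Fabp3* (0.994) for *Arg1*, *Olfm1* (0.997) and *Slc25a33* (0.995) for *Arg2*, and *Txnip* (0.995) and *Tmcc1* (0.994) for *Retnla*. *Etv3* (0.996) followed *Mgl2*, and *Fgfr1* (0.996) and *Dnm1* (0.996) followed *Clec10a*. *Fgfr1* was at 15380 ± 806 in SkMRMs (SD, n = 3), 964 ± 96.0 in gal-3+ cells (SD, n = 4) and 554 ± 48.7 in MDMs (SD, n = 3). *Il10ra* was followed by *P2rx4* (0.987), and *Il4ra* by *Tmem173* (0.952) and *Kif3b* (0.939). Above r = 0.95 there were 539 genes for *Arg1* and 597 for *Arg2*, against 1 for *Il4ra*. With 3 populations that differ at many genes such correlations follow the group means and are a description.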

How the data were processed

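RNA was isolated from sorted macrophages, and libraries were made by the authors from total RNA with a stranded low-input kit. Per the submitters' processing notes the tools were TopHat2 2.0.14, HTSeq 1.99.2 and DESeq2 1.28.1, and per the paper's methods reads were mapped to mm10 with GENCODE annotation. The deposited signal was the count of reads per gene divided by the authors' DESeq2 size factor, 1 per library. Division by the step between values gave whole reads within 0.001 for 100% of values. Deposited columns of the authors' own comparisons (fold changes, p-values) were not used, and 0 columns of values were left unmatched. Mdx columns were matched to their population, not to single samples.

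Log2(normalized count + 1) of all 17001 genes and 10 libraries was modelled by limma 3.58.1 under R 4.3.3 (1 mean per population, trended variance, 7 residual degrees of freedom, Benjamini-Hochberg adjustment over all genes). Requiring 10 normalized counts in 3 or more libraries removed 0 genes. Calls needed a fold of 2 or more with an adjusted p below 0.01. Fold changes are on that log2 scale, where the pseudocount shrinks those of low genes. Values of the count tests stand beside those of the arginases. Paralog ratios were compared with two-sided exact permutation tests. Depth limits the SkMRM arginase values, and errors are SDs between libraries. The procedure was tested on simulated data.

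Other settings tried were pseudocounts of 0.5 and 5, a minimum of 50 or none, TMM scaling, the count tests of edgeR 4.0.16 and of DESeq2 1.42.0 on the recovered reads, a fit of the compared populations alone, the number in the library name as a block, each library left out, and an adjusted p under 0.05 with no minimum fold. Same-numbered gal-3+ and MDM libraries were not treated as paired, because the labels do not say that they share a mouse. Correlations between their residuals were -0.0279, 0.0102 and 0.0253, which cannot show whether they do. Positions and exon lengths came from GENCODE M21 on GRCm38, a later release than the authors' annotation.

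The 7 genes and all gene lists were chosen with earlier results of these data known. From each list, up to 6 called genes with the largest change and a mean of at least 50 were eligible to be named, with pathway ligands, receptors and transducers. *Slc7a1*, *Slc7a2*, *Asl*, *Sms*, *Ddah2*, *Nos2*, *Irf4*, *Ccl24*, *Clec4n* and *Vti1b* were named after their values were seen. The nearest 2 genes were taken for each of the 7, and some genes that this rule names are not reported here.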

Additional observations from a re-analysis of the deposited data

How the results depend on the processing

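No fold change of the 7 genes changed direction in any alternative. Of 385 values of the 7 genes at the main thresholds, 373 kept their side of them, 7 gained a call and 5 lost it, and these were *Arg1* (gained) and *Retnla* (lost) in MDMs against gal-3+ macrophages. There *Arg1* was called with a pseudocount of 5 (adjusted p = 0.0046), edgeR (1.35, adjusted p = 0.0012), the mdx populations alone (adjusted p = 5.5e-05), the replicate block (1.34, adjusted p = 2.4e-04) or any SkMRM library left out, its adjusted p ranging from 8.6e-07 to 0.052 over all alternatives. *Retnla* ranged from -1.53 to -0.86 and lost its call with DESeq2, the mdx populations alone, the replicate block (-1.06, adjusted p = 0.031) or MDM mdx4 or mdx5 left out. The number of the 7 genes called higher was thus 2 with a pseudocount of 5, edgeR, the mdx populations alone and the replicate block, and 1 to 2 with a library left out. The number called lower was 1 with DESeq2, the mdx populations alone and the replicate block, and 1 to 2 with a library left out. The block fit used the mdx libraries alone, and gal-3+ mdx3 has no MDM partner and so does not bear on its fold changes. It called 870 genes lower in that comparison against 1392, while the mdx populations alone without the block gave 1139. With the block *Mgl2* was still called lower in MDMs (-1.86, limma adjusted p = 0.003, against 1.4e-06 in the main fit). In no pair of same-numbered libraries was the residual correlation over 0.1, which does not show whether they share a mouse. With an adjusted p under 0.05 and no minimum fold, 3947 genes were higher and 4397 lower in gal-3+ macrophages against SkMRMs (4 of the 7 higher), 4518 and 5216 in MDMs against SkMRMs, and 3375 and 3444 in MDMs against gal-3+ macrophages (2 of the 7 higher and 5 lower). Of 5060 values of 92 other listed genes at the main thresholds, 4969 kept their side, 40 gained a call and 51 lost it. TMM scaling shifted the median of all genes by 0.06 at most on the log2 scale. The SkMRM values of *Arg1* and *Arg2* rest on 4 to 282 reads per library, with WT3 well above WT1 and WT2, and the SEs of their folds were the widest of the 7 genes. The tests measure the spread between libraries, and no alternative could separate population from genotype.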

Other observations

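The 7 genes varied unequally between libraries of 1 population. The coefficient of variation of *Arg1* was 107% in SkMRMs, 25.0% in gal-3+ cells and 8.32% in MDMs, and that of *Arg2* was 88.7%, 29.6% and 13.4%. For *Mgl2* it was 8.29%, 13.4% and 40.6%, and for *Retnla* 20.8% in SkMRMs and 54.4% in MDMs, with gal-3+ macrophages below both. Each of these genes was thus most variable in the population where its level was lowest. *Clec10a* stayed between 5.27% and 10.4% in every population, and *Il10ra* between 4.59% and 7.53%.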
